A study of Mus musculus with 13 samples.

Results

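The NR4A and EGR transcription factors and the NAB corepressors are among the first genes that a T cell switches on, or adjusts, when its T cell receptor (TCR) is engaged. The 8 genes described here are Nr4a1, Nr4a2, Nr4a3, Egr1, Egr2, Egr3, Nab1 and Nab2, chosen by name out of 35906 genes to which the deposited transcripts could be assigned. All 8 had counts in every library, and all 8 passed the filter on low counts in each comparison. Their transcripts were summed to genes and followed through 4 groups of libraries, set by genotype and stimulation.

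NR4A proteins are orphan nuclear receptors that need no ligand to act and whose amount is set mainly by transcription, and NUR77, the product of Nr4a1, is widely read as a reporter of recent TCR signaling. EGR proteins are zinc-finger factors downstream of the ERK and calcium pathways, and EGR2 and EGR3 are known for restraining T cell activation and for their part in thymic selection. NAB1 and NAB2 bind EGR proteins and repress their activity, and Nab2 is itself a target of EGR factors.

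The cells were M2 CD4SP thymocytes, the most mature CD4 single-positive stage, sorted as CD69- MHCI+ cells. Every mouse carried the Lm54 transgene, which encodes 1 TCR against a listeriolysin O (LLO) peptide, on a Rag1-/- C57BL/6J background, so that all cells shared a receptor. The genotypes were Ctsl+/+ (labelled Ctsl fl/fl and WT) and CtslΔTEC, in which Foxn1-cre deletes the protease gene Ctsl in thymic epithelium but not in the sorted cells. Unstimulated cells came from 4 Ctsl+/+ mice (numbers 1 to 4) and 5 CtslΔTEC mice (1 to 5). Cells stimulated for 4 h on plate-bound LLO:I-Ab monomer at 1 µg/ml with soluble anti-CD28 at 250 ng/ml came from 2 Ctsl+/+ mice (5 and 6) and 2 CtslΔTEC mice (6 and 7). Each library was made from 1 mouse, and mice were 8 to 12 weeks old in the study's methods. The 2 libraries per stimulated group limit every comparison that uses them.

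Depth ran from 25692380 to 39127833 estimated counts at rest, and from 8085463 (Ctsl+/+ mouse 5) to 27184520 (Ctsl+/+ mouse 6) after stimulation. File dates fell into 3 sets: an early set of 3 unstimulated libraries (CtslΔTEC mice 1 and 3 and Ctsl+/+ mouse 4), a later set with the other 6, and a set with all 4 stimulated libraries, so that date and stimulation cannot be told apart. Cd4 stood at 745 to 1156 CPM (estimated counts scaled to the library total) in all 13 libraries, while the 4 B cell markers together stayed under 1 CPM. The 5 thymic epithelium markers summed to 2.53 to 5.16 CPM at rest and 10.9 to 15.1 CPM after stimulation, with Foxn1 at 0 to 2 counts, and Epcam was higher in CtslΔTEC cells at rest (0.77 on the log2 scale, edgeR adjusted p = 0.0469) and rose 6.74-fold in Ctsl+/+ and 4.52-fold in CtslΔTEC cells. The 4 erythroid markers summed to 28.2 to 116 CPM at rest, highest in the 3 libraries of the early date (60.8 to 116 CPM), and to 1.90 to 13.1 CPM after stimulation. The 4 regulatory T cell markers summed to 9.07 to 15.7 CPM in unstimulated Ctsl+/+ and 19.9 to 24.2 CPM in unstimulated CtslΔTEC libraries. Of these, 2 were called higher and 1 lower in CtslΔTEC cells, where 6.42% and 8.36% of all tested genes were. After stimulation these 4 markers summed to 704 to 759 CPM in Ctsl+/+ and 793 to 832 CPM in CtslΔTEC libraries. Their mean log2 CPM overlapped between genotypes, at 3.43 to 3.98 and 3.38 to 3.64. Of the 4, 0 were called higher and 1 lower in stimulated CtslΔTEC cells, where 2.77% and 10.6% of all tested genes were. The list holds Il2ra, which is also among the TCR activation genes below. The 4 dendritic cell markers summed after stimulation to 6.35 to 15.9 CPM in Ctsl+/+ and 2.02 to 2.17 CPM in CtslΔTEC libraries. The 9 markers of mature CD4SP cells, Cd4 among them, summed to 5514 to 5961 CPM in unstimulated Ctsl+/+ and 4404 to 4729 CPM in unstimulated CtslΔTEC libraries. Of the 9, 6 were called lower in CtslΔTEC cells, where 8.36% of all tested genes were. After stimulation the 9 summed to 2380 to 2476 and 2251 to 2278 CPM. There 4 of 9 were called lower, where 10.6% of all tested genes were. The 7 markers of double-positive (DP) thymocytes summed to 38.2 to 49.9 CPM in unstimulated Ctsl+/+ and 153 to 212 CPM in unstimulated CtslΔTEC libraries, and to 22.6 to 29.7 and 69.9 to 78.2 CPM after stimulation, so that the genotypes did not overlap. These 7 include Rag1, whose transcripts were counted although the mice were Rag1-/-. It stood at 2.78 to 5.13 CPM in unstimulated Ctsl+/+ and 4.51 to 26.5 CPM in unstimulated CtslΔTEC libraries. Y-linked genes were high (340 to 470 CPM) in all 5 unstimulated CtslΔTEC libraries and low (6.19 to 8.38 CPM) in 3 of the 4 unstimulated Ctsl+/+ libraries, the exception being mouse 3 with 390 CPM. After stimulation they were low in Ctsl+/+ mouse 5 (4.37 CPM) and CtslΔTEC mouse 6 (5.87 CPM). They were high in Ctsl+/+ mouse 6 (390 CPM) and CtslΔTEC mouse 7 (505 CPM). The part of these levels in the responses and genotype differences given below was not tested, except where a model with Y-linked genes is named. That model was run for the unstimulated comparison alone.

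The bases in front of the genes with the largest responses are shown to give the sequence beside the measurements. RefSeq promoter windows (GRCm38.p6, the 250 bases before an annotated start) were found for 6 of the 8 genes, and those for Egr1 and Egr3 were not found. Capitals mark half-sites of the cAMP response element (TGACG, or CGTCA on the other strand), CArG boxes, the palindromic element bound by serum response factor, and EGR sites (GCGNGGGCG, or CGCCCNCGC on the other strand). Nr4a1 is shown at chr15:101266596-101266845 (+), Nr4a2 at chr2:57124004-57124253 (−), Nr4a3 at chr4:48045055-48045152 (+), where the window runs into an annotated exon after 98 bases, and Egr2 at chr10:67537619-67537868 (+).
Nr4a1: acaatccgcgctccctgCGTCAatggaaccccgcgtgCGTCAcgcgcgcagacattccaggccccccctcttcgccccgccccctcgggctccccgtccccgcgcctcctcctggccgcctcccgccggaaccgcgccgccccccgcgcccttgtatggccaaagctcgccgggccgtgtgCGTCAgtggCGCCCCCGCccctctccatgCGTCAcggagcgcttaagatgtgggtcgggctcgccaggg
Nr4a2: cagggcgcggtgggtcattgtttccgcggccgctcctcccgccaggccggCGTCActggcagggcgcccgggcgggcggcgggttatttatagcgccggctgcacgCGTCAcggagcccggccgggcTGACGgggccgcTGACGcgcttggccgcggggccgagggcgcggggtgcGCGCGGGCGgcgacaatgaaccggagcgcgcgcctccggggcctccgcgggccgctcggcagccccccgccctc
Nr4a3: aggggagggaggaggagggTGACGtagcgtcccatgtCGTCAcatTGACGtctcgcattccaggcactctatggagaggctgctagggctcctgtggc
Egr2: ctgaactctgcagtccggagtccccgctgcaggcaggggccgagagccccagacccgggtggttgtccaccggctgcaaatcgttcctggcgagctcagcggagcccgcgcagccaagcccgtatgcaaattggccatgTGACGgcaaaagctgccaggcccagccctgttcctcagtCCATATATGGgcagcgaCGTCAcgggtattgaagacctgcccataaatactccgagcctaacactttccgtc

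In the full windows, Nr4a1, Nr4a2 and Nr4a3 each had 4 CRE half-sites, against 0.14% of 32851 RefSeq promoters with 4 or more. Of the 4 in the Nr4a3 window, 3 lie in the printed stretch. RefSeq lists 5 starts for Egr2, and the printed window, which ends where the main transcript starts, had 2 half-sites, a count reached by 3.9% of promoters, and 1 CArG box, present in 1.47%. Of the other 4 Egr2 windows, 2 share 249 and 189 bases with it and have the same motifs, 1 had the CArG box alone and 1 had no motif. Nr4a1 and Nr4a2 had 1 EGR site each and the Nab1 window had 3, where 4.7% of promoters held at least 1 and 0.14% at least 3, but 231 of the 250 bases of the Nab1 window are annotated as exon. Nab2 had none of these motifs. The full CRE (TGACGTCA) and the NR4A element AAAGGTCA, present in 1.55% and 1.34% of promoters, were found in none of the 6 genes. A match describes letters only, and no binding was measured.

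Not every transcript starts behind the printed bases. In the GRCm38 annotation used to sum transcripts, the main Nr4a1 transcript, ENSMUST00000023779 with 89.7% of the gene's counts over all libraries, starts at the base after the printed stretch, as does the main Egr2 transcript, ENSMUST00000048289 with 82.2%. The main Nr4a2 transcript, ENSMUST00000028166 with 63.9%, starts 8965 bases downstream of the printed window. Of the main Nr4a3 transcripts, ENSMUST00000030025 with 47.3% starts directly after the printed bases, and ENSMUST00000153369 with 51.1% starts 3809 bases downstream of the RefSeq start.

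Before stimulation the 8 genes spanned a wide range of levels. In TPM, a relative abundance that corrects for transcript length, the means in Ctsl+/+ cells (n = 4) fell from 113 ± 10.2 (SD) for Nab2 through 94.0 ± 54.5 for Egr1, 70.0 ± 3.90 for Nab1 and 62.7 ± 41.2 for Nr4a1 to 15.6 ± 2.48 for Egr3, 13.8 ± 1.89 for Egr2, 1.89 ± 0.284 for Nr4a3 and 1.12 ± 1.21 for Nr4a2. Nab2 and Egr1, Egr1 and Nab1, Nab1 and Nr4a1, Egr3 and Egr2, and Nr4a3 and Nr4a2 overlapped between libraries and could not be put in order. Thus, the corepressor genes were among the highest of the 8 at rest, and Nr4a2 and Nr4a3 were nearly silent. Nr4a2 had only 2 to 46 estimated counts in an unstimulated library.

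After 4 h of stimulation the order changed. Nr4a1 was first in CtslΔTEC cells with 4886 ± 174 TPM (n = 2) and in Ctsl+/+ cells with 3560 ± 1199 TPM, and Nab1 was last with 80.7 ± 14.9 and 48.2 ± 11.3 TPM. Nr4a3 and Nab2 stood at 643 ± 36.8 and 627 ± 73.1 TPM in CtslΔTEC cells and overlapped. Egr1 followed with 411 ± 92.5 TPM, and Egr3 (181 ± 31.2) and Egr2 (153 ± 18.9) overlapped. The TPM of Nr4a2 (1168 ± 241 in CtslΔTEC cells) rests mostly on 1 transcript, ENSMUST00000128776, with 72.3% of the TPM but 2.9% of the counts over all libraries, so its place in this order is uncertain. Differences within a gene were therefore tested on counts, as CPM.

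**Figure D1:**
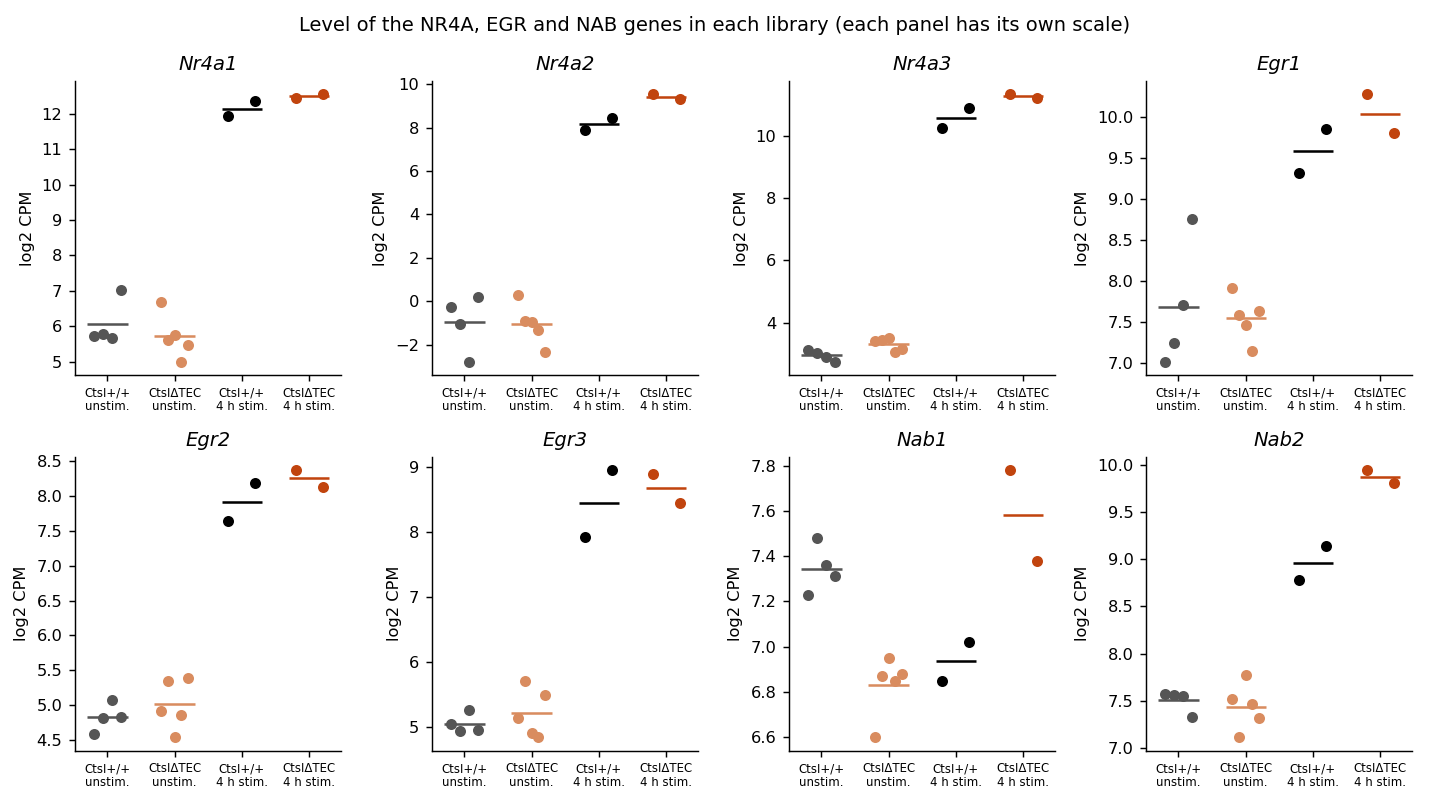
Each panel plots 1 gene, with log2 CPM of each library as a point, the group mean as a line, and the 4 groups along the x axis. Stimulated libraries lie above unstimulated ones in every panel but Nab1, where stimulated Ctsl+/+ libraries (6.85 and 7.02) lie below unstimulated Ctsl+/+ libraries (7.23 to 7.48) and stimulated CtslΔTEC libraries (7.38 and 7.78) above unstimulated CtslΔTEC libraries (6.60 to 6.95).

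The first comparison asked how far each gene responded to the 4 h stimulation within a genotype. No library was labelled as cells cultured without antigen, so that antigen, anti-CD28 and culture cannot be told apart. By edgeR's quasi-likelihood test on all 13 libraries, 7 of the 8 genes rose in Ctsl+/+ cells (adjusted p under 0.1) and Nab1 fell, where 32.9% of 14241 tested genes rose and 34.8% fell. In CtslΔTEC cells all 8 rose, where again 32.9% of genes did. The median log2 fold change of the 8 was 3.30 in Ctsl+/+ and 3.33 in CtslΔTEC cells, against 0.01 and -0.06 over all tested genes. Stimulated and unstimulated libraries did not overlap for any of the 8 genes in either genotype. This separation held for 69.4% of all tested genes in Ctsl+/+ cells in either direction, and for 33.8% in CtslΔTEC cells with stimulated libraries above. The responses of the genotypes share no libraries, but in each the stimulated libraries have a date of their own. In bulk RNA, more responding cells and more RNA per cell cannot be told apart.

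The NR4A genes rose most. Nr4a1 stood at 53.2, 55.7, 50.6 and 130 CPM in unstimulated Ctsl+/+ mice 1 to 4 and at 3931 and 5180 CPM in stimulated mice 5 and 6. In CtslΔTEC cells it went from 104, 49.1, 54.3, 32.1 and 44.7 CPM in mice 1 to 5 to 5500 and 5948 CPM in mice 6 and 7. The lowest stimulated library thus lay far above the highest unstimulated one. The rise was 62.9-fold in Ctsl+/+ cells (log2 fold change 5.97, SE 0.43, edgeR adjusted p = 1.4e-08) and 101-fold in CtslΔTEC cells (6.65, SE 0.40, adjusted p = 1.4e-09).

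Nr4a2, which encodes the receptor NURR1, went from near absence to levels well above 100 CPM. Its unstimulated range was 0.0744 to 1.08 CPM in Ctsl+/+ and 0.125 to 1.16 CPM in CtslΔTEC libraries. The stimulated values were 234 and 347 CPM in Ctsl+/+ and 738 and 643 CPM in CtslΔTEC libraries. This gave the largest fold changes of the 8 genes, 468-fold (log2 8.87, SE 0.44, edgeR adjusted p = 2.8e-10) and 1330-fold (log2 10.38, SE 0.41, adjusted p = 1.7e-11), whose size depends on the few unstimulated counts.

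Nr4a3, which encodes NOR1, was measured at 8.76, 8.13, 7.44 and 6.72 CPM in unstimulated Ctsl+/+ mice 1 to 4 and at 1219 and 1868 CPM after stimulation. In CtslΔTEC cells the values were 10.6, 10.9, 11.5, 8.39 and 8.93 CPM in mice 1 to 5, and 2565 and 2378 CPM after stimulation. With its narrow spread between mice, the rise had the smallest p of the 8 genes in both genotypes, at rank 5 and rank 4 of 14241 genes. It was 199-fold in Ctsl+/+ (log2 7.64, SE 0.18, edgeR adjusted p = 4.5e-13) and 246-fold in CtslΔTEC cells (log2 7.94, SE 0.16, adjusted p = 8.6e-14).

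The EGR genes started higher or rose less. Egr1 was at 130, 151, 210 and 429 CPM in unstimulated Ctsl+/+ mice 1 to 4 and 637 and 922 CPM in stimulated ones. The CtslΔTEC values were 241, 193, 177, 142 and 198 CPM in mice 1 to 5 and 1232 and 893 CPM after stimulation. Egr1 thus had the smallest response among the 3 EGR genes, at 3.39-fold in Ctsl+/+ (log2 1.76, SE 0.35, edgeR adjusted p = 0.000448) and 5.58-fold in CtslΔTEC cells (log2 2.48, SE 0.33, adjusted p = 8.0e-06).

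Egr2 and Egr3 encode factors known to restrain T cell activation. Egr2 ranged over 24.1 to 33.8 CPM in unstimulated Ctsl+/+ and 23.3 to 41.8 CPM in unstimulated CtslΔTEC libraries, and reached 199 and 292 CPM, and 331 and 279 CPM, after stimulation. It rose 8.61-fold (log2 3.11, SE 0.21, edgeR adjusted p = 5.9e-09) and 9.25-fold (log2 3.21, SE 0.19, adjusted p = 1.3e-09). The values of Egr3 were similar: 30.4 to 38.3 and 28.5 to 52.3 CPM before stimulation, and 244 and 498, and 478 and 353 CPM, after it. Its rise was 11.2-fold in Ctsl+/+ (log2 3.49, SE 0.26, edgeR adjusted p = 1.8e-08) and 10.9-fold in CtslΔTEC cells (log2 3.44, SE 0.24, adjusted p = 6.5e-09).

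The NAB corepressor genes parted. Nab2 was at 190, 189, 187 and 161 CPM in unstimulated Ctsl+/+ mice 1 to 4 and 439 and 563 CPM after stimulation, a 2.76-fold rise (log2 1.46, SE 0.15, edgeR adjusted p = 4.8e-07). In CtslΔTEC cells it was at 184, 138, 218, 176 and 159 CPM in mice 1 to 5 and 989 and 899 CPM after stimulation, a 5.40-fold rise (log2 2.43, SE 0.14, adjusted p = 6.0e-10). Nab1 stood at 150, 178, 165 and 158 CPM in unstimulated Ctsl+/+ mice 1 to 4 and at 116 and 130 CPM after stimulation. This was a fall in Ctsl+/+ cells (log2 -0.40, SE 0.12, edgeR adjusted p = 0.00973). In CtslΔTEC mice 1 to 5 it was at 97.2, 117, 123, 115 and 117 CPM, and after stimulation at 220 and 167 CPM. There Nab1 rose 1.69-fold (log2 0.76, SE 0.11, adjusted p = 2.4e-05).

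**Figure D2:**
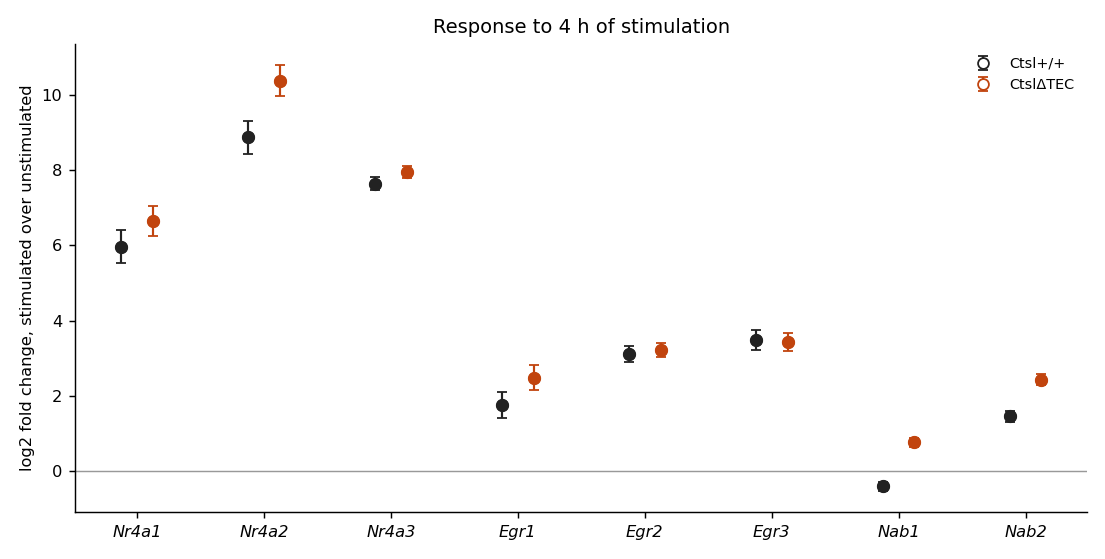
Points give the log2 fold change of each gene, stimulated over unstimulated, on the y axis, with black for Ctsl+/+ and red for CtslΔTEC cells and bars of 1 SE from edgeR. All values are called and lie above 0 except Nab1 in Ctsl+/+ cells at -0.40, with Nr4a2 highest at 8.87 and 10.38.

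The response was compared with 16 genes known to answer TCR engagement, such as Cd69, Il2, Tnf and Irf4. All 16 rose in Ctsl+/+ cells and 15 of 16 in CtslΔTEC cells, with median log2 fold changes of 4.29 and 4.69. The cytokine gene Il2 rose by 12.04 (SE 0.46) on the log2 scale in Ctsl+/+ and by 8.13 (SE 0.49) in CtslΔTEC cells, above Nr4a1 in both and below Nr4a2 in CtslΔTEC cells. A second list of 18 immediate-early and heat-shock genes that also react to cell handling, such as Fos, Jun and Hspa1a, was less uniform: of 17 tested, 6 rose and 1 fell in Ctsl+/+ cells, and 7 rose and 1 fell in CtslΔTEC cells. Over all tested genes 32.9% rose in each genotype, so that the counts of rising handling genes are near the background. The shares that fell were 34.8% in Ctsl+/+ and 38.2% in CtslΔTEC cells.

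Among 16 regulators known to act upstream of NR4A and EGR genes, 6 rose and 5 fell with stimulation in Ctsl+/+ cells, and 8 rose and 5 fell in CtslΔTEC cells. Over all tested genes 32.9% rose and 34.8% fell in Ctsl+/+ cells, and 32.9% rose and 38.2% fell in CtslΔTEC cells, so that these counts, and those of the partner genes below, are near the background. Mef2c, a MEF2 factor that drives Nr4a1 in response to calcium, rose by 6.19 (SE 0.44, edgeR adjusted p = 1.2e-08) and 6.52 (SE 0.44, adjusted p = 4.6e-09) on the log2 scale. Crem, of the CREB family that binds CRE sites, rose by 2.88 and 3.13 and Crtc1, a CREB coactivator, by 1.45 and 1.48. Elk3, a partner of serum response factor, changed by -1.96 and -2.82, and Crtc3 by -1.68 and -1.95. These regulator genes are listed by their known roles, and no link to the 8 genes was measured.

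Of 10 genes for partners of NR4A and EGR proteins, 3 rose and 5 fell in Ctsl+/+ and 3 rose and 6 fell in CtslΔTEC cells. Rxra, the retinoid X receptor that pairs with NR4A1 and NR4A2, fell, with log2 fold changes of -1.65 (SE 0.23, edgeR adjusted p = 1.8e-05) and -2.83 (SE 0.27, adjusted p = 2.0e-07). The fourth EGR gene, Egr4, rose by 4.78 (SE 0.94, adjusted p = 0.00100) and 7.0 (SE 1.54, adjusted p = 0.00200).

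Of 17 genes known as EGR or NR4A targets in T cells, 16 were tested, and 10 rose and 4 fell in Ctsl+/+ and 11 rose and 4 fell in CtslΔTEC cells, with medians of 1.77 and 1.50 on the log2 scale. Cdkn1a, the cell cycle inhibitor p21, rose by 8.14 (SE 0.25, edgeR adjusted p = 3.4e-12) and 8.18 (SE 0.24, adjusted p = 9.9e-13), and Pdcd1, which encodes the inhibitory receptor PD-1, by 4.76 and 5.47. Lag3, another inhibitory receptor gene, rose by 4.51 and 2.98, and the suppressor of cytokine signaling gene Socs1 by 3.74 and 3.31. Socs3 fell, with -3.74 and -3.86.

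The second comparison asked whether the genes differed between genotypes before stimulation. Of the 8, Nab1 was lower and Nr4a3 higher in CtslΔTEC cells by edgeR's quasi-likelihood test on the 9 unstimulated libraries, where 14.8% of 13152 tested genes were called (6.42% higher and 8.36% lower). The other 6 genes did not pass the test. The share called among the 8 was thus not far from the background. The list of 8 had a median log2 fold change of -0.14, against 0.01 over all tested genes.

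Nab1 was the clearer of the pair. All 5 CtslΔTEC libraries (97.2 to 123 CPM) lay below all 4 Ctsl+/+ libraries (150 to 178 CPM), a separation in this direction seen in 7.92% of tested genes. The log2 fold change was -0.51 (SE 0.08, edgeR adjusted p = 0.00150). With the mean log2 CPM of 4 Y-linked genes in the model it was -0.54 (adjusted p = 0.0740), and in the 6 libraries of the later date alone -0.49 (adjusted p = 0.00246).

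Nr4a3 was higher by 0.38 (SE 0.12, edgeR adjusted p = 0.0806), with means of 10.1 ± 1.34 CPM (SD, n = 5) in CtslΔTEC and 7.76 ± 0.879 CPM (n = 4) in Ctsl+/+ libraries. The groups overlapped, as CtslΔTEC mouse 4 (8.39 CPM) lay below Ctsl+/+ mouse 1 (8.76 CPM). The difference did not pass the test without any 1 of CtslΔTEC mice 1, 2 and 3 or Ctsl+/+ mice 2, 3 and 4 (adjusted p 0.114 to 0.189), or in the later date alone (0.21, adjusted p = 0.373).

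Nr4a1 and Egr1 gave log2 fold changes of -0.35 (SE 0.35, edgeR adjusted p = 0.610) and -0.27 (SE 0.30, adjusted p = 0.644), and both turned positive without Ctsl+/+ mouse 4, to 0.10 and 0.22. With date in the model they were -0.46 (SE 0.17, adjusted p = 0.104) and -0.25 (adjusted p = 0.478), and in the later date alone -0.34 (adjusted p = 0.163) and 0.12 (adjusted p = 0.718). That library held the highest values of both genes at rest, 130 and 429 CPM, and CtslΔTEC mouse 1, of the same early file date, the next highest, 104 and 241 CPM. The summed level of the 18 handling genes was 3701 and 4444 CPM in these libraries and 2971 CPM in CtslΔTEC mouse 3, the third of that date, against 1213 to 1735 CPM in the other 6 unstimulated libraries. By mean log2 CPM of the same genes the dates parted less, with 5.05 to 5.22 in the early set. Later Ctsl+/+ mice 1, 2 and 3 had 5.00, 4.31 and 3.49, and later CtslΔTEC mice had 3.16 to 3.18. Of 16 handling genes tested at rest, 3 were called lower in CtslΔTEC cells, where 8.36% of all tested genes were. These were Fosl2 (-2.19), Hspa1a (-4.86) and Hsph1 (-0.72) on the log2 scale. CtslΔTEC mouse 3 had 54.3 CPM of Nr4a1 and 177 CPM of Egr1, within the range of the later date for Egr1 and for Nr4a1. The part of date and of handling in these levels was not tested. Nr4a2, Egr2, Egr3 and Nab2 gave -0.23, 0.21, 0.21 and -0.05, with adjusted p of 0.491 to 0.878, and in the later date alone Nab2 was called lower (-0.26, adjusted p = 0.0902).

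The third comparison asked the same after stimulation. By edgeR on the 4-group model, 4 of the 8 genes were called, all higher in CtslΔTEC cells, where 13.3% of 14241 genes were called and 2.77% called higher. That share of higher calls ran from 0.746% to 6.38% over the alternatives, the highest where 10 counts were required in every library. The 4 were Nr4a2, Nr4a3, Nab1 and Nab2. The median log2 fold change of the 8 was 0.55, against -0.05 over all tested genes. Both CtslΔTEC libraries lay above both Ctsl+/+ libraries for Nr4a1, Nr4a2, Nr4a3, Nab1 and Nab2, a separation in this direction seen in 19.4% of tested genes, and the EGR genes overlapped.

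Nab2 had the smallest p, with 989 and 899 CPM in CtslΔTEC against 439 and 563 CPM in Ctsl+/+ libraries (log2 fold change 0.91, SE 0.18, edgeR adjusted p = 0.00495). It passed the test with each of the 13 libraries left out in turn, with values of 0.74 to 1.10. Nab1 was higher by 0.65 (SE 0.14, adjusted p = 0.00933), with 220 and 167 CPM against 116 and 130 CPM. Without CtslΔTEC mouse 6 its difference was 0.44 (adjusted p = 0.136).

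Nr4a3 was higher by 0.68 (SE 0.18, edgeR adjusted p = 0.0301), at 2565 and 2378 CPM against 1219 and 1868 CPM. Nr4a2 was higher by 1.25 (SE 0.39, adjusted p = 0.0622), at 738 and 643 CPM against 234 and 347 CPM. Without CtslΔTEC mouse 6 neither passed, with 0.62 (adjusted p = 0.166) for Nr4a3 and 1.14 (adjusted p = 0.247) for Nr4a2. The same was true without Ctsl+/+ mouse 5, the library with the fewest counts, with 0.40 (adjusted p = 0.293) and 0.98 (adjusted p = 0.366). Nr4a2 also lost the call without CtslΔTEC mouse 7 (1.33, adjusted p = 0.140), by DESeq2 (1.27, adjusted p = 0.442) and with a transcript length offset (1.58, adjusted p = 0.195), and its p is above 0.05.

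Nr4a1 had 5500 and 5948 CPM in CtslΔTEC against 3931 and 5180 CPM in Ctsl+/+ libraries, and this difference of 0.33 (SE 0.47) did not pass the test (edgeR adjusted p = 0.745). The EGR genes gave 0.45 (SE 0.42) for Egr1, 0.31 (SE 0.24) for Egr2 and 0.16 (SE 0.30) for Egr3, with adjusted p of 0.500 to 0.822. In each of these 3 genes Ctsl+/+ mouse 5 was lowest, and Ctsl+/+ mouse 6 lay above CtslΔTEC mouse 7. Among the 16 TCR activation genes 2 were lower in stimulated CtslΔTEC cells, Il2 with -3.55 (SE 0.34, adjusted p = 5.9e-05) and Tnfrsf4, which encodes OX40, with -0.94 (SE 0.22, adjusted p = 0.0146). At rest 4 of 15 tested activation genes were lower in CtslΔTEC cells and 1 higher, where 8.36% and 6.42% of all tested genes were. After stimulation 10.6% of all tested genes were lower, so that 2 of 16 is near the background. Il2 and Tnfrsf4 went opposite in sign to the called NR4A and NAB genes. Of the 17 handling genes tested only Btg2 was called, higher by 0.52 (SE 0.16, adjusted p = 0.0581), and the summed handling level was 4137 and 4178 CPM in CtslΔTEC against 3399 and 3567 CPM in Ctsl+/+ libraries. Whether that sum bears on the NR4A and NAB values was not tested.

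The other genes of the pathway were compared between genotypes in the same way. In unstimulated cells 2 of 15 tested upstream regulators were lower in CtslΔTEC cells, Srf with -0.45 (SE 0.11, edgeR adjusted p = 0.0189) and Crtc3 with -0.21 (SE 0.07, adjusted p = 0.0698). In stimulated cells 3 of 16 were lower, with -0.83 (SE 0.11, adjusted p = 0.000406) for Elk3, -0.50 for Mrtfa and -0.48 for Crtc3. Over all tested genes 8.36% were lower at rest and 10.6% after stimulation, so that the counts of regulators, and of the partner genes that follow, are near the background. Of the 10 partner genes only Rxra was called, after stimulation, with -1.60 (SE 0.31, adjusted p = 0.00486), and at rest it gave -0.41 (SE 0.14, adjusted p = 0.101). Of the target genes 3 of 15 were higher and 2 lower at rest, and 2 of 16 higher and 2 lower after stimulation, where 6.42% and 2.77% of all genes were higher. Socs3 was higher by 1.88 (SE 0.12) at rest and by 1.76 (SE 0.32) after stimulation. Bcl2l11, which encodes the proapoptotic protein BIM, was higher by 0.53 (SE 0.08, adjusted p = 0.00142) at rest and lower after stimulation, with -0.68 (SE 0.13, adjusted p = 0.00451). Pdcd1 was higher by 0.62 (SE 0.18, adjusted p = 0.050) in stimulated CtslΔTEC cells.

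**Figure D3:**
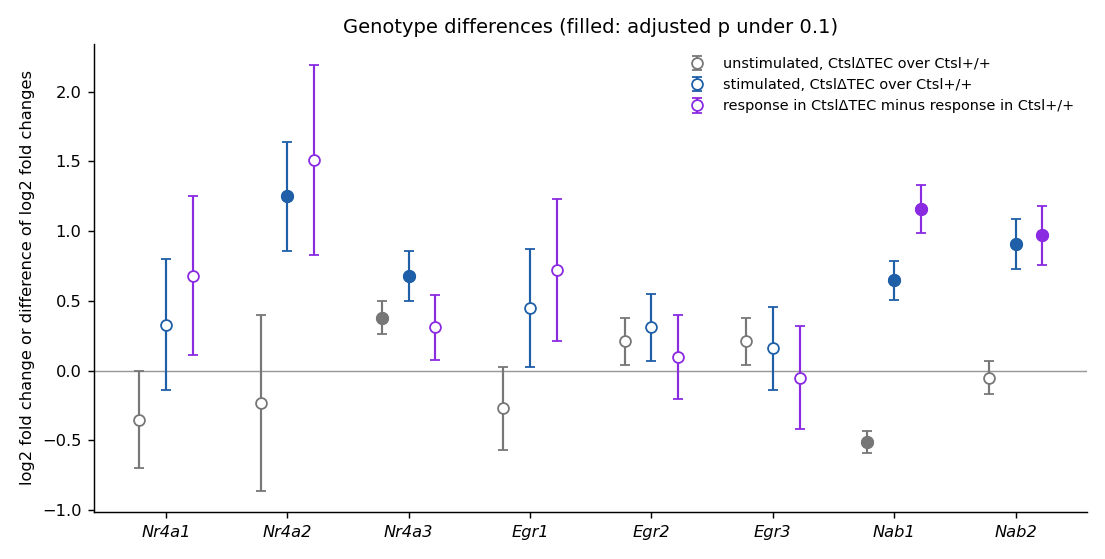
For each gene, grey gives the unstimulated and blue the stimulated log2 fold change, CtslΔTEC over Ctsl+/+, and purple the difference of the responses, on the y axis with bars of 1 SE, filled where the adjusted p is under 0.1. Nab1 lies at -0.51 at rest and 0.65 after stimulation, and the purple points are filled for Nab1 (1.16) and Nab2 (0.97) alone.

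The last comparison, the interaction, tested whether the responses themselves differed between genotypes. Of the 8 genes Nab1 and Nab2 passed, both with the larger response in CtslΔTEC cells, where 6.01% of 14241 tested genes were called and 1.13% in this direction. The log2 difference was 1.16 (SE 0.17, edgeR adjusted p = 0.00389) for Nab1, at rank 20 of all genes by p, and 0.97 (SE 0.21, adjusted p = 0.0240) for Nab2, at rank 228. For Nab1 it sets a rise in CtslΔTEC cells, from a lower level, against a fall in Ctsl+/+ cells. For Nab2 it sets a larger rise against a smaller one, from levels at rest in Ctsl+/+ and CtslΔTEC cells of 182 ± 14.1 CPM (SD, n = 4) and 175 ± 29.9 CPM (n = 5).

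Nab1 kept its call with each library left out in turn (0.95 to 1.34). Nab2 lost it without CtslΔTEC mouse 6 (0.90, edgeR adjusted p = 0.116) and without Ctsl+/+ mouse 5 (0.80, adjusted p = 0.142). Without the 3 libraries of the early date the differences were 1.2 (adjusted p = 0.00535) and 1.23 (adjusted p = 0.00636).

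For the 6 transcription factor genes the interaction was not called. The log2 differences were 0.68 (SE 0.57) for Nr4a1, 1.51 (SE 0.68) for Nr4a2 and 0.31 (SE 0.23) for Nr4a3, with edgeR adjusted p of 0.631, 0.284 and 0.576. Those of Egr1, Egr2 and Egr3 were 0.72 (SE 0.51), 0.10 (SE 0.30) and -0.05 (SE 0.37), with adjusted p of 0.550, 0.928 and 0.984. The higher stimulated levels of Nr4a2 and Nr4a3 in CtslΔTEC cells are therefore not shown to be a larger response. Without CtslΔTEC mouse 1, the unstimulated library with the most Nr4a2 (46 counts), the Nr4a2 difference was 2.15 (adjusted p = 0.0704).

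**Figure D4:**
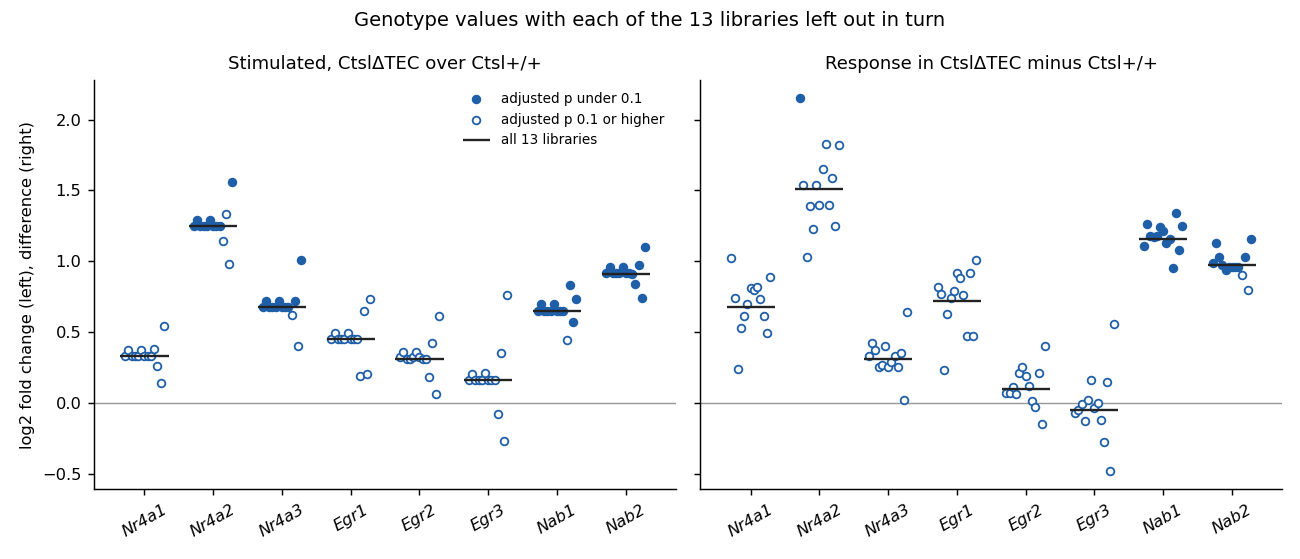
For each gene, 13 points give the value with 1 library left out in turn and the line the value with all 13, on the y axis as log2 fold change between genotypes after stimulation (left) and as log2 difference of responses (right), filled where the adjusted p is under 0.1. On the left Nab2 alone is filled at all 13 points (0.74 to 1.10), and on the right Nab1 alone (0.95 to 1.34).

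Counts on single transcripts showed whether the mix of each gene's transcripts changed with stimulation. For the transcript with the most TPM of each gene, the share of the gene's TPM was compared between 4 stimulated and 9 unstimulated libraries by a two-sided exact permutation test, whose smallest possible p is 0.00140, and 5 of 8 genes gave an unadjusted p under 0.05. The same test gave such a p in 39.7% of the 8151 genes that had several transcripts with at least 5% of the counts, so that the count is near the background. By share of counts 4 of the 8 passed, against 41.8% of genes, and within CtslΔTEC cells 4 of the 8, against 32.2%. Egr2 reached that smallest value: ENSMUST00000048289 took 88.0% of the TPM at rest (71.9 to 96%) and 68.6% after stimulation (66.6 to 70.5%), with no overlap. By share of counts it went from 89.7% to 78.7% (exact permutation p = 0.00699). ENSMUST00000127820, which starts 753 bases downstream of the nearest RefSeq start, held 10.2% of Egr2 counts over all libraries.

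Egr3 shifted in the same sense, with ENSMUST00000225200 at 48.4% of TPM at rest and 38.6% after stimulation (exact permutation p = 0.0182). A transcript annotated as intron-retaining, ENSMUST00000223747, held 33.2% of its counts over all libraries. In Nr4a3 the transcript with the downstream start, ENSMUST00000153369, went from 32.0% (0 to 54.6%) to 49.7% of TPM (47.7 to 50.7%, exact permutation p = 0.0490), on 200 to 421 counts of the gene per unstimulated library. Nab2 moved from 61.6% to 51.4% (exact permutation p = 0.0126) for ENSMUST00000026469, but not by share of counts (69.1% and 66.1%, exact permutation p = 0.411). Nr4a1 (65.8% and 60.0%, exact permutation p = 0.297), Egr1 (76.8% and 79.1%, exact permutation p = 0.180) and Nab1 (72.0% and 69.1%, exact permutation p = 0.455) did not pass, and Nr4a2 (exact permutation p = 0.0490) has too few unstimulated counts to read a share. Transcripts of 1 gene share most of their sequence, so that these shares rest on how kallisto divided shared reads, and file date goes with stimulation here too.

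**Figure D5:**
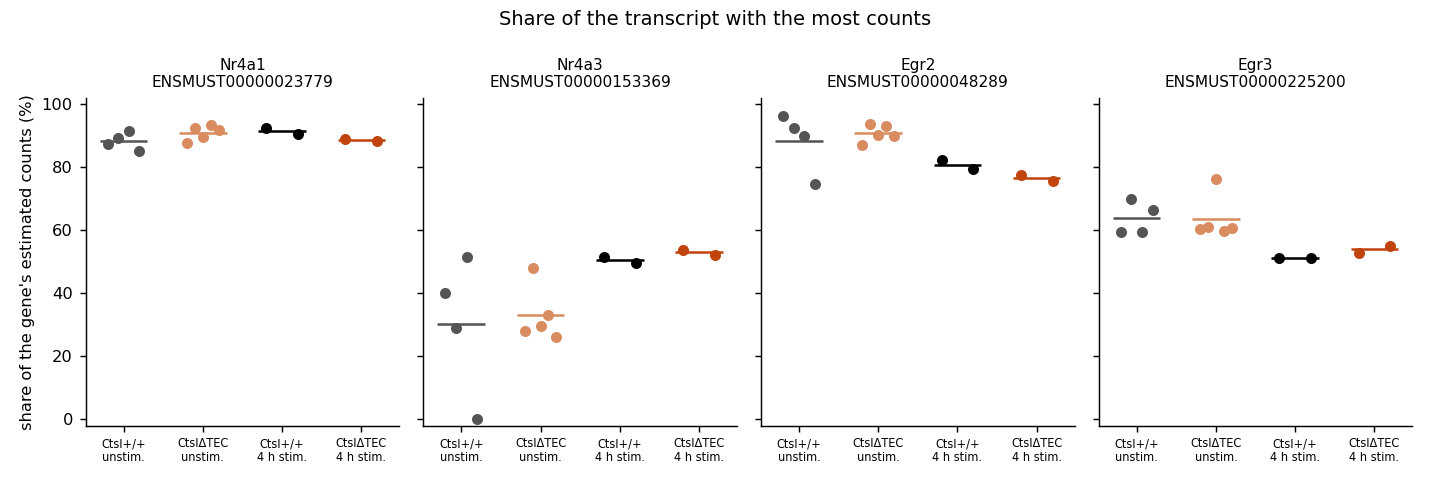
For 4 genes, each point is 1 library and the y axis gives the share (%) of the gene's estimated counts on the transcript with the most counts, with group means as lines. Egr2 falls from a mean of 89.7% at rest to 78.7% and Egr3 from 63.7% to 52.5%, Nr4a3 goes from 31.7% to 51.8%, and Nr4a1 stays at 89.9% and 90.0%.

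The 8 genes also varied among mice at rest. Over the 9 unstimulated libraries, which share file dates within sets, Pearson's r of log2 CPM was 0.87 between Egr2 and Egr3, 0.81 between Nr4a1 and Egr1, and 0.68 between Nr4a1 and Nr4a2. Nab2 ran against Egr2 (-0.79) and Egr3 (-0.71), and Nab1 against Nr4a3 (-0.71). Several of these rested on 2 libraries. Without Ctsl+/+ mouse 4 and CtslΔTEC mouse 1, the farthest from the Nr4a1 median, r fell to 0.16 for Nr4a1 with Egr1 (Spearman's rho 0.45 over all 9) and to 0.20 for Nr4a1 with Nr4a2 (rho 0.68). Without CtslΔTEC mice 2 and 5, the farthest for Egr2 and Egr3, it was 0.56 for Egr2 with Egr3 (rho 0.77), -0.51 for Egr2 with Nab2 (rho -0.82) and 0.03 for Egr3 with Nab2 (rho -0.55). Nab1 with Nr4a3 gave -0.76 (rho -0.62) without the 2 libraries farthest for Nr4a3. In the same 9 libraries Nab1 was called lower and Nr4a3 higher in CtslΔTEC cells, so that their r cannot be told apart from the genotype difference. The values of this paragraph describe 9 libraries of both genotypes and carry no test. No r was computed within a genotype.

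The genes most like each member over the same 9 libraries were taken from tested genes whose mean there was 1 log2 CPM or more. For Nr4a1 they were Dusp6, an ERK phosphatase gene (r = 0.974, Spearman's rho 0.817), Plk3 (0.973, rho 0.850) and Dcaf5 (0.963, rho 0.983). Without Ctsl+/+ mouse 4 and CtslΔTEC mouse 1, the libraries farthest from the Nr4a1 median, r was 0.83 for Dusp6, 0.885 for Plk3 and 0.894 for Dcaf5. Nearest to Nr4a3 were Primpol (0.954), Lrp12 (0.949) and Fancd2 (0.944), to Egr1 Gm16286 (0.957), Ogg1 (0.954) and Mydgf (0.944), and to Egr2 Bicd2 (0.975), Olfr318 (0.925) and Tspan32 (0.922). For Egr3 they were Araf (0.897), Adgrv1 (0.876) and D2hgdh (0.871), for Nab1 Atic (0.983), Prkd3 (0.979) and Ano10 (0.977), and for Nab2 Alkbh5 (0.953), Arhgap35 (0.911) and Fbxo45 (0.905). Without the 2 libraries farthest from the member's median, r over all 21 pairs ranged from 0.563 (Adgrv1 with Egr3) to 0.989 (Mydgf with Egr1). Nr4a2 was below the level limit. All these genes were picked for the highest r among every tested gene above that limit, so that a high r is built into the choice. Genotype enters these values too, as for Nab1, whose libraries did not overlap between genotypes at rest. No test was made.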

How the data were processed

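RNA of sorted thymocytes was sequenced in 13 libraries. The authors ran kallisto 0.48 on the reads, with transcripts of Ensembl release 106. For each transcript and library they deposited estimated counts, which are not normalized, and TPM. The labels name polyadenylated RNA, whereas the methods describe rRNA depletion. Of 117497 transcripts, 116397 (99.1%) were paired with a gene of GENCODE M21 (GRCm38), and the others took at most 0.461% of a library's counts. Counts were summed to genes and rounded. Groups came from the sample labels, dates from file names.

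Genes were tested in R 4.3.3 with edgeR 4.0.16 (quasi-likelihood test, TMM, filterByExpr, Benjamini-Hochberg adjustment over all tested genes, threshold 0.1). The unstimulated comparison used 9 libraries, the others a 4-group model of all 13. The SE was the log2 fold change divided by the square root of F. Log2 CPM used a prior count of 2. The estimated counts and the TPM as deposited cover reads that kallisto divided between transcripts, so shares of transcripts are less certain than gene totals. The steps were tested on simulated data.

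The 8 genes and all gene lists were chosen with earlier results of these data known. At most 5 called genes with the largest changes were named per list and comparison, and 3 most-alike genes per member. Alternatives were DESeq2 1.42.0, other normalizations and count filters, a length offset, protein-coding genes, date, Y-linked genes or mouse number in the model, and leaving out each library. Replicate libraries differed beyond counting noise in every pair. Thymocyte Ctsl does not check the epithelial deletion and was detected in every group (3.30 to 17.9 CPM).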

Additional observations from a re-analysis of the deposited data

Results flagged for a closer look

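In groups of 4 or 5 libraries, 3 values of the 8 genes stood apart from the rest of their group by Dixon's test, where 16 groups were tested and chance gives about 0.8 (1 in 20). Nr4a1 was at 7.02 log2 CPM in unstimulated Ctsl+/+ mouse 4, against 5.66 to 5.80 in the other 3 Ctsl+/+ libraries. In the same library Nab2 was at 7.33 log2 CPM, against 7.55 to 7.57 in the others. Nab1 was at 6.60 log2 CPM in unstimulated CtslΔTEC mouse 1, against 6.85 to 6.95 in the other 4 CtslΔTEC libraries. Both libraries belong to the early file date and had the highest summed levels of the 18 handling genes at rest, 3701 CPM in Ctsl+/+ mouse 4 and 4444 CPM in CtslΔTEC mouse 1. The part of date and of handling was not tested.

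Responses that differed between genotypes by edgeR's test of the interaction were those of Nab1, by 1.16 on the log2 scale (adjusted p = 0.00389), and of Nab2, by 0.97 (adjusted p = 0.0240). The Nab1 response went in opposite directions in the genotypes, with -0.40 in Ctsl+/+ and 0.76 in CtslΔTEC cells.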

How the results depend on the processing

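Of 2 genes called between genotypes at rest, 1 (Nab1) was called with no filter on low counts, at an adjusted p under 0.05, in the 4-group fit of 13 libraries, with Y-linked genes in the model, with mouse number as a replicate block (mice 1 to 4) and with every library thinned to the smallest total, a setting chosen after seeing the data, and 1 or 2 when 1 library was left out. In the later date alone 2 were called, Nab1 and Nab2. After stimulation 4 genes were called, 3 by DESeq2, with a length offset or at an adjusted p under 0.05 (without Nr4a2), and 1 (Nab2, without CtslΔTEC mouse 6) to 4 when 1 library was left out, with 2 (Nab1 and Nab2) without Ctsl+/+ mouse 5. In the interaction 2 were called, and 1 (Nab1, without CtslΔTEC mouse 6 or Ctsl+/+ mouse 5) to 3 (with Nr4a2, without CtslΔTEC mouse 1). Where leaving out a library left 1 in a group, its spread was taken from the other groups. Responses to stimulation kept direction and call in all 8 genes under every alternative run, except that Nr4a2 was not tested where 10 counts were required in every library. Transcript shares differed in 5 genes, in 4 by share of counts, in 4 within CtslΔTEC cells, in 0 within Ctsl+/+ cells, where the exact p cannot go below 0.0667, and in 3 to 5 when 1 library was left out, with 3 without any 1 of CtslΔTEC mice 1, 3, 4, 5, 6 and 7 and Ctsl+/+ mice 2 and 6.

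Signs turned only for differences that were not called. The unstimulated log2 difference of Egr1 was 0.12 in the later date alone. With Y-linked genes in the model it was 0.26 for Nr4a1, 3.08 for Nr4a2, -0.04 for Egr2 and -0.02 for Egr3, and with the replicate block 0.13 for Nr4a2. The interaction of Egr3 was 0.00 by DESeq2 and 0.01 with 10 counts in every library, and that of Egr2 -0.01 without the 3 libraries of the early date, added after seeing the data. With 1 library left out the unstimulated difference ranged from -0.68 to 0.10 for Nr4a1, -0.83 to 0.25 for Nr4a2, -0.47 to 0.22 for Egr1 and -0.14 to 0.02 for Nab2, the stimulated difference from -0.27 to 0.76 for Egr3, and the interaction from -0.15 to 0.40 for Egr2 and -0.48 to 0.56 for Egr3. The causes were not tested. Equal mouse numbers mark different mice, their libraries correlated at -0.16, 0.35, -0.10 and -0.14, and 1943 of all genes were called with 9 libraries, 1549 without CtslΔTEC mouse 5, which has no partner, and 1056 with the block over the remaining 8. That number was 430 with Y-linked genes in the model. After stimulation 1898 genes were called, and 1127 in the 4 stimulated libraries alone, 945 without CtslΔTEC mouse 6, 1254 without mouse 7 and 966 without Ctsl+/+ mouse 5. In the interaction 856 were called, 471 at 0.05, 334 without CtslΔTEC mouse 6 and 340 without Ctsl+/+ mouse 5. Scaling by library totals moved the share of higher genes among the calls at rest from 43.4% to 56.8% and the median response in CtslΔTEC cells from -0.06 to -0.21. With every library thinned to the smallest total, that of Ctsl+/+ mouse 5, 4 genes were called after stimulation.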
